A study of Mus musculus with 8 samples.

Results

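The proteasome subunit genes of mouse liver were compared between animals given resmetirom and a control group. The set was every gene of the deposited table whose symbol is Psma, Psmb, Psmc, Psmd or Psme followed by a digit, and it held 46 of 22013 genes. Of these, 43 passed a filter on low counts and were tested. The series describes mice on a diet of fructose, palmitate and cholesterol for 12 weeks, a model of steatohepatitis, which is a fatty liver disease with inflammation. The resmetirom group (4 libraries) carries the drug, an agonist selective for thyroid hormone receptor beta, which the series gives by intraperitoneal injection at 5 mg/kg/day for 8 weeks after the first 4 weeks of that diet, in a vehicle of 0.5% carboxymethyl cellulose sodium and 0.4% Tween. The control group (4 libraries) is named only as control, so its diet, vehicle and injections are not given, and a difference in any of these cannot be told apart from the drug. Strain, sex and age are not given for either group. Whether the libraries come from separate animals is not stated, and the p-values therefore rest on variation among libraries, which may be technical.

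The proteasome is the barrel-shaped protease that degrades proteins tagged with ubiquitin. Its core particle stacks rings of alpha subunits, which gate the entrance, around rings of beta subunits, of which Psmb5, Psmb6 and Psmb7 carry the active sites. In cells exposed to interferon, and in many leukocytes, the subunits Psmb8, Psmb9 and Psmb10 take the places of Psmb5, Psmb6 and Psmb7 and form the immunoproteasome, which is known for making peptides for major histocompatibility complex class I. The regulatory particle, made of the Psmc ATPases and most Psmd proteins, binds ubiquitin chains, removes them and unfolds the substrate, while the Psme proteins are alternative caps. When proteasome activity falls short, the transcription factor NRF1 (gene Nfe2l1) is known to raise the subunit genes together.

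By role, the 46 genes comprised 8 core alpha genes, 7 core beta genes, 4 immunoproteasome or thymus beta genes, 6 ATPase genes, 11 non-ATPase genes of the regulatory particle, 3 assembly chaperones with Psmd names, 5 activators, and 2 genes that share only the name (Psmc3ip, which encodes a meiotic recombination factor, and Psme3ip1, which encodes a protein that interacts with Psme3). The deposited annotation places 42 of the 46 in its proteasome pathway, all except Psmd5, Psmd10, Psmc3ip and Psme3ip1, together with 5 genes that the naming rule leaves out (Adrm1, Ifng, Pomp, Psmf1 and Sem1).

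Gene counts summed to 16787561 to 19887539 per library. The libraries were not alike in composition: the Mup genes, which encode abundant secreted urinary proteins, took 20.1%, 25.1% and 17.8% of all counts in resmetirom replicates 2 to 4 but 7.54% in resmetirom replicate 1, against 4.32% to 7.05% in the control libraries. Resmetirom replicate 1 thus stood apart from the other resmetirom libraries. Levels are given as CPM (counts scaled to a fixed library total) adjusted by TMM factors, which set the libraries to a common level on the assumption that most genes do not change, and each fold change is relative to that scaling. The summed level of 10 hepatocyte markers was 94500 to 103000 CPM in the resmetirom libraries and 75600 to 84500 CPM in the control libraries, and none of these markers was at 0. Most of these sums was Alb, which encodes albumin, at 70170 to 76610 CPM in the resmetirom libraries and 55420 to 63370 CPM in the control libraries. Of the 10, Cps1 and Tat rose and 0 fell, while Ttr and Hpd had estimates of -0.09 and -0.13 that did not pass. Of 6 endothelial markers 0 were called (median log2 fold change -0.39), of 6 stellate cell markers 1, Col3a1, fell (median -0.31), and of 5 cholangiocyte markers 0 were called (median 0.67). Among all tested genes, 2.6% were called higher and 1.99% lower. The part of cell makeup in the proteasome values was not tested. In whole tissue, fewer cells of a type and less RNA per cell cannot be told apart.

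No proteasome gene passed the main test for a difference between the groups. With edgeR's quasi-likelihood test and a Benjamini-Hochberg adjusted p under 0.05, 0 of the 43 tested genes were higher, against 2.6% of all 12207 tested genes, and 0 were lower, against 1.99% of them (4.59% in either direction). At an unadjusted p under 0.05, 5 were higher (Psma1, Psmb1, Psmb4, Psmd10 and Psme2) and 0 were lower, against 9.48% and 8.36% of all tested genes. DESeq2 called 1 higher (Psme2), against 3.85% of all genes, and 0 lower, against 2.85%. On limma's log2(TPM + 1) scale 0 genes were higher, against 0.971% of all genes, and 21 of 45 lower, against 32.7%. On the log2(TPM + 0.1) scale 0 were higher, against 1.0%, and 23 of 45 lower, against 32.8%. For these TPM scales the share among genes of at least 10 CPM was not taken. The fitted log2 fold changes lay between -0.15 (Psmd8) and 0.30 (Psmd10), with an SD over the genes of 0.0924, against 0.608 over all tested genes. Their median was 0.10, against -0.0043 over all tested genes and 0.014 over the 7006 tested genes of at least 10 CPM.

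The estimates were narrow. For 40 of the 43 tested genes the 95% interval of the fold change lay within 1.5-fold in either direction, which held for 49.7% of all tested genes and 73.8% of those of at least 10 CPM. The exceptions were Psma8, Psmb9 and Psmd10. The fitted change was above 0 for 37 of the 43, against 49.3% of all tested genes and 52.7% of those of at least 10 CPM. The groups did not overlap, with resmetirom higher, for 8 of the 43, against 6.32% of all tested genes and 8.65% of those of at least 10 CPM. They did not overlap, with resmetirom lower, for 0 of the 43, against 5.5% and 6.18%. The 8 were Psma1, Psma3, Psma5, Psma7, Psmb2, Psmb3, Psmb4 and Psme2, so 7 of them encode core subunits. Across 12184 tested genes, exonic length and log2 fold change had a Spearman rho of -0.111, a description over genes that share libraries, and the tested proteasome genes were short, with a median exonic length of 2820 bases against 4471 for all tested genes. The part of length in these values was not tested.

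**Figure D1:**
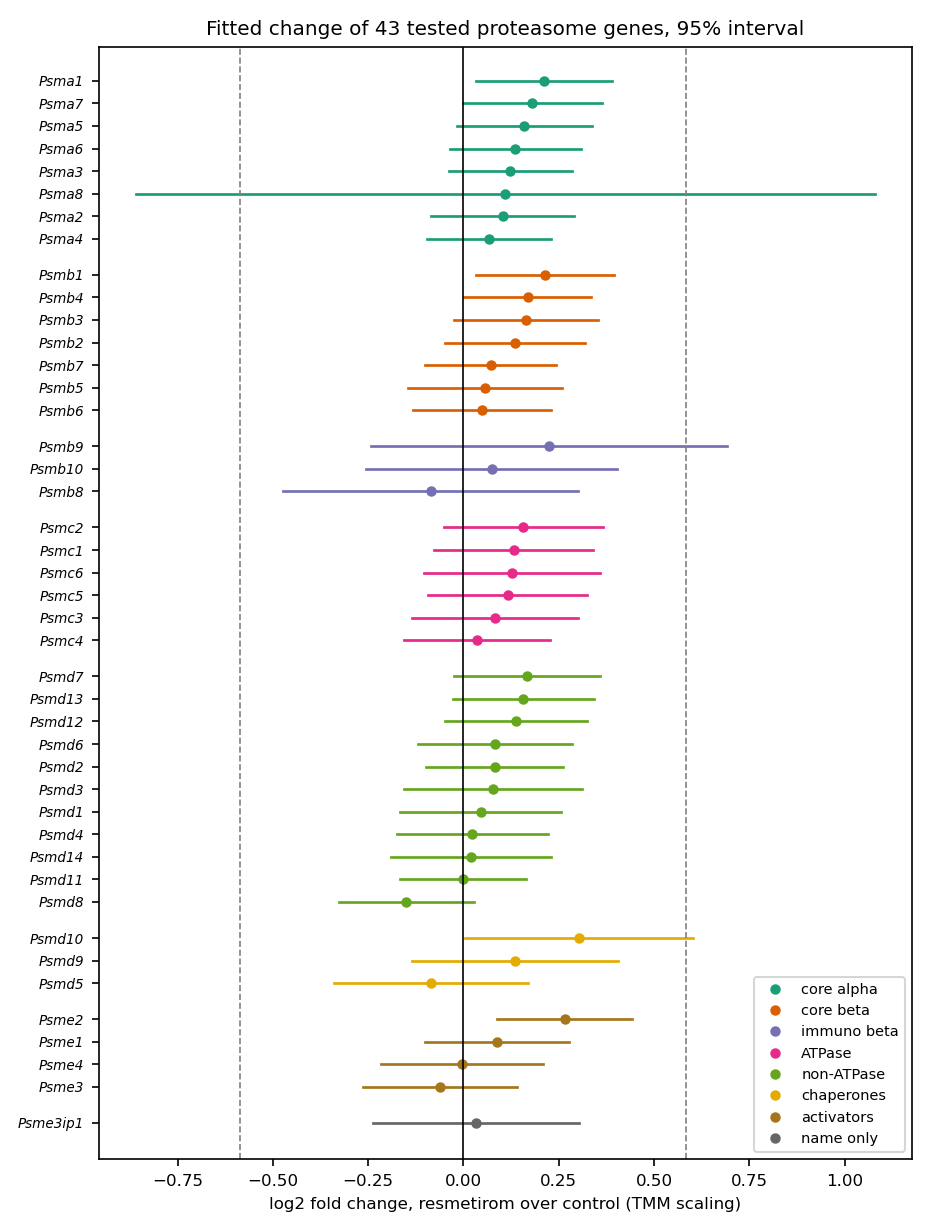
Fitted log2 fold change (resmetirom over control, horizontal axis) of the 43 tested proteasome genes, grouped by role. Points are estimates, bars are 95% intervals and dashed lines mark 1.5-fold either way; most points lie slightly right of 0 and only Psma8, Psmb9 and Psmd10 have bars that cross a dashed line.

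Promoters were read from RefSeq on GRCm38.p6, where 39 of the 46 genes had a window of 250 bases before to 50 after the start. Motifs were searched on both strands as letter patterns. The core of the antioxidant response element that NRF1 and NRF2 bind, TGACNNNGC, was found for 6 of the 39 genes (15.4%, against 14% of 27025 genes): Psmb5, Psmb6, Psmc6, Psmd12, Psmd9 and Psme4. The core of the interferon-stimulated response element, GAAA and GAAA with any 2 bases between them, was found for 4 (10.3%, against 3.99%): Psmb3, Psmd4, Psmd9 and Psme1. The CCAAT box was found for 16 (41%, against 41.1%). A match is a description of letters and not a bound site. The windows of 6 genes follow, from 250 bases before to 30 after the start, 5′ to 3′ on the gene's strand, with matches in capitals. Psmb5 and Psmb8 are shown as the constitutive and the immunoproteasome form of 1 active site, Psme1 and Psme2 as the cap pair of which Psme2 came closest to the threshold, Psmd8 as the lowest estimate, and Sem1, a lid subunit that the naming rule leaves out, as the proteasome partner that rose. Psmb5 lies at chr14:54617966-54618245 (minus strand), Psmb8 at chr17:34197945-34198224 (plus), Psme1 at chr14:55578244-55578523 (plus), Psme2 at chr14:55591072-55591351 (minus, the first of 2 windows listed), Psmd8 at chr7:29180644-29180923 (minus) and Sem1 at chr6:6578629-6578908 (minus).
Psmb5: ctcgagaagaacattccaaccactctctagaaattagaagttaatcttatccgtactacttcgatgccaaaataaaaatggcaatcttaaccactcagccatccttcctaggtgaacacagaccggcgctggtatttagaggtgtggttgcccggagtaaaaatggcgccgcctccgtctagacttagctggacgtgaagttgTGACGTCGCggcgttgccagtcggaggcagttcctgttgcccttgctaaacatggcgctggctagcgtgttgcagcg
Psmb8: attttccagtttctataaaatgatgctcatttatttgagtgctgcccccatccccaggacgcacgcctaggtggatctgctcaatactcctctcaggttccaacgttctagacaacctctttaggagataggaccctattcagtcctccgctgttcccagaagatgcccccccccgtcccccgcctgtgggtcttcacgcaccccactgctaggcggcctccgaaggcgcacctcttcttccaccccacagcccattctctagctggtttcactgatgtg
Psme1: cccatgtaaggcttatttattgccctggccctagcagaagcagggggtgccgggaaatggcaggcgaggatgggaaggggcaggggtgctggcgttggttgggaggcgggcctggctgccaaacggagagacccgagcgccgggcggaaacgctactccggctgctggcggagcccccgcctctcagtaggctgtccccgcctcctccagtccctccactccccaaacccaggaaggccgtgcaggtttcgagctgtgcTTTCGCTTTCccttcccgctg
Psme2: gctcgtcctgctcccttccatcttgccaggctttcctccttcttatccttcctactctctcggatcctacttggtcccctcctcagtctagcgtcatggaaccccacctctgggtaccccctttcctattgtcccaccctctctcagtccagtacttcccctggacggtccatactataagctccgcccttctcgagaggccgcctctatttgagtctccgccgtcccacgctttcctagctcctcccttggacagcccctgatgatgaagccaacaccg
Psmd8: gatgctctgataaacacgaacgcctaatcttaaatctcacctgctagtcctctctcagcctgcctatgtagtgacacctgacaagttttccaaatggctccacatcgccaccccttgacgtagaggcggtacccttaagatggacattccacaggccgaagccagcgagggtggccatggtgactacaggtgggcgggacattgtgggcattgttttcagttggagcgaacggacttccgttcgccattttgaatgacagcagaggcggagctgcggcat
Sem1: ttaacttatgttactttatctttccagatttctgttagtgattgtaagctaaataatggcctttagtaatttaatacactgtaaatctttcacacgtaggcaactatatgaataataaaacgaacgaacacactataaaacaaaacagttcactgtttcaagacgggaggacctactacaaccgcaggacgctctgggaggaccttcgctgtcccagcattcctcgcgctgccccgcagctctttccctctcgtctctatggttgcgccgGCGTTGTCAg
The capitals mark the antioxidant pattern in Psmb5 and Sem1 and the interferon pattern in Psme1 (in Sem1 and Psme1 as the reverse complement), and Psmb8, Psme2 and Psmd8 held no match to any of the 3 patterns in these 280 bases. The Psmb8 and Psme1 windows begin at 34197945 and 55578244, after the gene starts of 34197721 and 55578123 in the GENCODE annotation. These windows therefore do not cover the sequence before the GENCODE starts. Of these 6 genes, Sem1 rose in the main test, a call that held in 7 of 18 alternatives. Psmb5, Psmb8, Psme1, Psme2 and Psmd8 did not pass the test.

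The alpha ring genes were all uncalled. Excluding Psma8, their fitted changes ranged from 0.07 (Psma4) to 0.21 (Psma1), and none passed the test. Psma1 (ENSMUSG00000030751, chromosome 7, 114264606 to 114276118, GRCm38) was at 126, 139, 128 and 121 CPM in the resmetirom libraries and at 116, 116, 108 and 104 CPM in the control libraries. All 4 resmetirom libraries lay above all 4 control libraries, and the fitted log2 difference was 0.21 (SE 0.08, adjusted p = 0.196). Psma4 was at 156, 158, 154 and 156 CPM in the resmetirom libraries, against 149, 158, 147 and 142 CPM in the control libraries, and the groups overlapped. Psma6, the alpha gene with the highest TPM (the authors' value per gene length), was at 0.14 (SE 0.08, adjusted p = 0.420). Psma8, which encodes the alpha subunit of the testis proteasome, had only 7 to 20 counts in the resmetirom libraries and 9 to 18 in the control libraries, and its 95% interval was -0.86 to 1.08.

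Among the beta ring genes, the structural subunits had larger estimates than the catalytic ones, although none passed the test and the difference between them was not tested. Psmb1 (ENSMUSG00000014769, chromosome 17, 15475021 to 15499751), a structural subunit, was at 175, 173, 154 and 170 CPM in the resmetirom libraries and 148, 155, 145 and 133 CPM in the control libraries. Its groups overlapped by 1 library, resmetirom replicate 3, and its fitted change was 0.21 (SE 0.08, adjusted p = 0.195). Psmb2, Psmb3 and Psmb4, also structural, were at 0.14, 0.16 and 0.17. The catalytic genes sat closer to 0. Psmb5, the chymotrypsin-like subunit (ENSMUSG00000022193, chromosome 14, 54614119 to 54618022), was at 89.8, 87.5, 88.4 and 104 CPM in the resmetirom libraries and 97.4, 85.2, 91 and 82 CPM in the control libraries. Its log2 fold change was 0.06 (SE 0.09, 95% interval -0.15 to 0.26, adjusted p = 0.827). Psmb6, the caspase-like subunit, was at 0.05 (SE 0.08, adjusted p = 0.828), and Psmb7, the trypsin-like subunit and the beta gene with the highest TPM, was at 0.07 (SE 0.08, adjusted p = 0.718).

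The immunoproteasome genes varied more from library to library than between the groups. Psmb8 (ENSMUSG00000024338, chromosome 17, 34197721 to 34201454) was at 16.8, 24.9, 18.4 and 13.3 CPM in the resmetirom libraries and at 17.6, 22.7, 20.5 and 17.1 CPM in the control libraries. The highest and the lowest of these 8 values are both resmetirom libraries. Its log2 fold change was -0.09 (SE 0.18, 95% interval -0.47 to 0.30, adjusted p = 0.868). Psmb9 (ENSMUSG00000096727, chromosome 17, 34181987 to 34187764) was at 7.83, 11.9, 6.53 and 7.86 CPM in the resmetirom libraries and 9.13, 7.4, 7 and 5.69 CPM in the control libraries, a change of 0.23 (SE 0.21, adjusted p = 0.670). Resmetirom replicate 2 was the highest library for both genes, and without it the Psmb9 estimate was 0.020. With each library left out in turn that estimate ranged from 0.020 to 0.35. Psmb10 was at 16.5, 19.2, 17.9 and 13.3 CPM in the resmetirom libraries, against 17.8, 17.5, 15.7 and 12.6 CPM in the control libraries, with a change of 0.07 (SE 0.15, adjusted p = 0.866). Psmb11, the beta subunit of the thymus, had 0 counts in all 8 libraries, which allows a level of up to 0.0206 CPM over all libraries together, counting error only.

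The summed level of 9 leukocyte markers was 200, 185, 136 and 111 CPM in the resmetirom libraries and 171, 177, 205 and 185 CPM in the control libraries, with 0 of 9 called in either direction and none at 0. The summed level of 11 macrophage markers was 1150, 990, 590 and 436 CPM in the resmetirom libraries and 904, 695, 1020 and 712 CPM in the control libraries, with 0 of 11 called. Over all libraries, resmetirom replicate 4 was lowest for both marker sums and for Psmb8, and control replicate 4 for Psmb9 and Psmb10. Among the resmetirom libraries alone, replicate 4 was lowest for Psmb10 and replicate 3 for Psmb9. The highest leukocyte sum was in control replicate 3 and the highest macrophage sum in resmetirom replicate 1. Psmb8 was highest in resmetirom replicate 2. Lymphocyte markers summed to 4.93 to 16.5 CPM in the resmetirom libraries and 4.24 to 8.91 CPM in the control libraries, with 0 of 7 tested called and a median fitted change of 1.14. Among all tested genes, 2.6% were called higher and 1.99% lower. The part of leukocytes in the immunoproteasome values was not tested.

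Transcripts of the immunoproteasome genes were compared with those of their constitutive counterparts as a ratio within each library, which no scaling between libraries can move. Replacement of subunits in the assembled particle was not measured. Counts of Psmb8 were 18.7%, 28.4%, 20.9% and 12.8% of those of Psmb5 in the resmetirom libraries and 18.1%, 26.7%, 22.5% and 20.8% in the control libraries. The mean difference of the log2 ratio was -0.17 (exact permutation test, 2-sided p = 0.600, adjusted over 3 pairs 0.900, n = 4 each). Counts of Psmb9 were 9.32% ± 2.24 of those of Psmb6 in the resmetirom libraries and 8.24% ± 1.08 in the control libraries (SD, n = 4 each; difference 0.16, exact permutation p = 0.543, adjusted 0.900). Counts of Psmb10 were 8.92% ± 1.52 of those of Psmb7 in the resmetirom libraries and 8.85% ± 1.07 in the control libraries (SD, n = 4 each; difference 0.0025, exact permutation p = 1.0, adjusted 1.0). With 4 against 4 libraries the smallest p this test can give is 0.0286, and a single differing pair, adjusted over the 3, could not go below 0.0857. All 3 pairs overlapped between the groups. Per length, as ratios of TPM, Psmb8 stood at 15.6% ± 4.09 of Psmb5 in the resmetirom libraries and 19.2% ± 3.34 in the control libraries (SD, n = 4 each), so the constitutive transcripts were the more abundant form in every library.

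**Figure D2:**
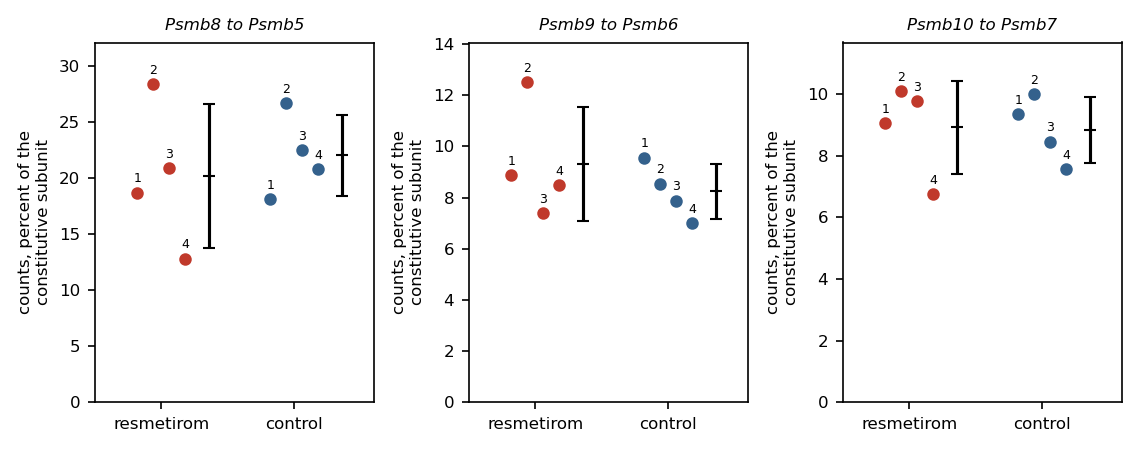
Counts of each immunoproteasome gene as a percent of the counts of its constitutive counterpart (vertical axes), by library, with replicate numbers beside the points and mean ± SD at the right of each group. Psmb8 spans 12.8% to 28.4% of Psmb5 in the resmetirom libraries, a range that contains the 18.1% to 26.7% of the control libraries.

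The ATPase genes form the ring that unfolds substrates, and all 6 were uncalled, with fitted changes of 0.04 (Psmc4) to 0.16 (Psmc2). Psmc3, the ATPase gene with the highest TPM (ENSMUSG00000002102, chromosome 2, 91054009 to 91066369), was at 132, 164, 136 and 134 CPM in the resmetirom libraries and 150, 136, 125 and 123 CPM in the control libraries. Resmetirom replicate 2 was above all other libraries, and the remaining libraries of both groups overlapped. Psmc2 was at 88.7, 103, 113 and 93.2 CPM in the resmetirom libraries, against 92, 93.8, 83.5 and 88 CPM in the control libraries (log2 fold change 0.16, SE 0.10, adjusted p = 0.450). Over the 6 genes, the median log2 CPM relative to the control mean was -0.021, 0.295, 0.099 and 0.022 in resmetirom replicates 1 to 4, and -0.084 to 0.070 in the control libraries. Without resmetirom replicate 2 the median fitted change of the ATPase genes was 0.033, against 0.12 with all libraries.

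The 11 non-ATPase genes of the regulatory particle were also uncalled, with a median of 0.08. Psmd8, a lid subunit with the highest TPM of this group (ENSMUSG00000030591, chromosome 7, 29174188 to 29180701), had the lowest estimate of all 43 genes. It was at 136, 116, 123 and 130 CPM in the resmetirom libraries and 136, 144, 136 and 144 CPM in the control libraries, a log2 fold change of -0.15 (SE 0.08, 95% interval -0.33 to 0.03, adjusted p = 0.379). Resmetirom replicate 1 reached the level of the lowest control libraries, and the other resmetirom libraries were below them. Psmd7, a scaffold of the lid, had the highest estimate of the group at 0.17 (SE 0.09, adjusted p = 0.361). Psmd14, the deubiquitinase that cuts ubiquitin chains off the substrate, was at 0.02 (SE 0.10, adjusted p = 0.953), and Psmd4, a ubiquitin receptor, was at 0.02 (SE 0.09, adjusted p = 0.938). Psmd3, the gene of this group with the lowest TPM, was at 0.08 (SE 0.11, adjusted p = 0.788). Psmd4 and Psmd14 were named after their values were seen. Without resmetirom replicate 2 the median of the 11 genes was 0.0037.

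The 3 assembly chaperones, which help build the base of the regulatory particle and leave it, pointed in different directions. Psmd10, also called gankyrin (ENSMUSG00000031429, chromosome X, 140948429 to 140956728), was at 15.7, 11.9, 17 and 17.1 CPM in the resmetirom libraries and 11.8, 12.4, 13.1 and 12.6 CPM in the control libraries. Resmetirom replicate 2 lay among the control libraries and the other 3 were above them, and the fitted change was 0.30 (SE 0.14, adjusted p = 0.271). Psmd9 was at 0.14 (SE 0.12, adjusted p = 0.654) and Psmd5 at -0.09 (SE 0.12, adjusted p = 0.785).

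Of the activators, Psme2 came closest to the threshold. Psme1 and Psme2 encode the subunits of the interferon-inducible cap. Psme2 (ENSMUSG00000079197, chromosome 14, 55587441 to 55591113) was at 68.6, 68.5, 66.5 and 64.6 CPM in the resmetirom libraries and 58.9, 55.1, 56.4 and 52.8 CPM in the control libraries. All 4 resmetirom libraries were above all 4 control libraries, and the log2 fold change of 0.27 (SE 0.08, 95% interval 0.09 to 0.44) had an unadjusted p of 0.00673 and an adjusted p = 0.0951 in edgeR's test. Its adjusted p was 0.0410 with DESeq2, and 0.0932 to 0.263 when each library was left out in turn. With limma on log2(TPM + 1) its estimate was -0.24 (adjusted p = 0.199). Psme1, its partner (ENSMUSG00000022216, chromosome 14, 55578123 to 55581529), was at 77.9, 85, 75.2 and 79.1 CPM in the resmetirom libraries and 73.8, 82.1, 70.5 and 71.9 CPM in the control libraries, with a change of 0.09 (SE 0.09, adjusted p = 0.680). Psme3, the nuclear cap, was at -0.06 (SE 0.09, adjusted p = 0.807). Psme4, a large single-chain cap known for its role with acetylated histones, was at 0.00 to within rounding (SE 0.10, 95% interval -0.21 to 0.21, adjusted p = 0.993).

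The 3 genes not tested were near or at 0. Psme2b, a copy of Psme2, had 3 counts over the resmetirom libraries and 19 over the control libraries, and reads shared with Psme2 could not be told apart. Psmc3ip had 9 counts over the resmetirom libraries and 22 over the control libraries. Psme3ip1 was tested and was at 0.03 (SE 0.12, adjusted p = 0.937). Exons of 15 of the 46 genes overlap exons of another annotated gene, among them Psmb9 with Tap1, Psme1 with Emc9 and Psmd13 with Sirt3, each on the opposite strand. Whether counting used strand is not given, so reads of such pairs could not be told apart.

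**Figure D3:**
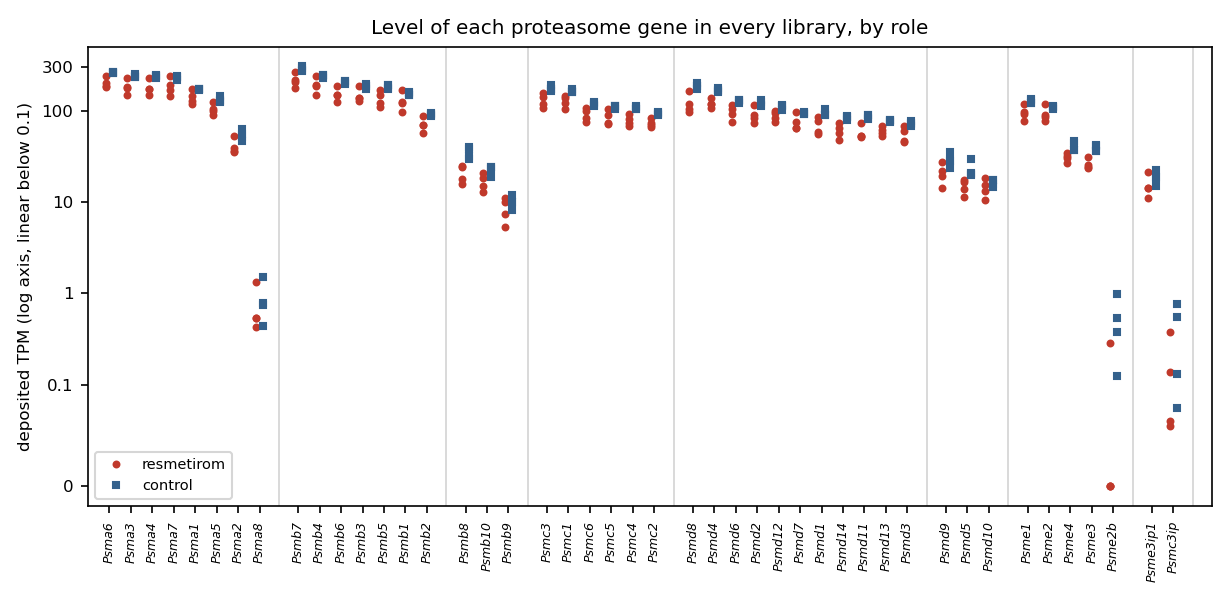
Deposited TPM (vertical axis, log scale above 0.1) of the 45 proteasome genes with counts, in every library, by role and ordered by level within a role. Most core and regulatory genes lie within a few-fold of 100 TPM, the immunoproteasome genes lie lower, and the resmetirom points tend to sit below the control points on this scale.

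Levels per length were compared with the deposited TPM. Averaged over the 8 libraries, the core genes other than Psma8 ranged from 47.5 (Psma2) to 252 TPM (Psmb7), with a median of 173 TPM. The 17 genes of the regulatory particle ranged from 64 to 154 TPM, with a median of 97.8 TPM. The 3 tested immunoproteasome genes ranged from 9.26 (Psmb9) to 28 TPM (Psmb8). Psmb7 was at 215 ± 36.2 TPM in the resmetirom libraries and 288 ± 14.2 TPM in the control libraries (SD, n = 4 each), and Psmb9 was at 8.44 ± 2.56 TPM in the resmetirom libraries and 10.1 ± 1.55 TPM in the control libraries (SD, n = 4 each). The summed TPM of the regulatory particle was 0.713 ± 0.0406 times that of the core in the resmetirom libraries and 0.745 ± 0.0292 times in the control libraries (SD, n = 4 each), and these ratios overlapped between the groups.

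The direction of the whole set differed between scalings. The 46 genes together took 0.434%, 0.391%, 0.336% and 0.367% of all counts in resmetirom replicates 1 to 4, against 0.437% to 0.446% in the control libraries. Every resmetirom library was therefore below every control library, with replicate 1 nearest to them. As a share of the counts without the Mup genes, the same 46 genes took 0.469%, 0.489%, 0.449% and 0.446% in the resmetirom libraries. The control libraries were at 0.464% to 0.476%, and the groups overlapped. The part of the Mup genes in the lower share of all counts was not tested. Their summed TPM was 3926 ± 656 in the resmetirom libraries and 5149 ± 50.5 in the control libraries (SD, n = 4 each). Scaled by TMM factors, the summed level was 4244 ± 182 CPM in the resmetirom libraries and 3973 ± 119 CPM in the control libraries (SD, n = 4 each). On that scale every resmetirom library (4109 to 4512 CPM) was above every control library (3844 to 4096 CPM).

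**Figure D4:**
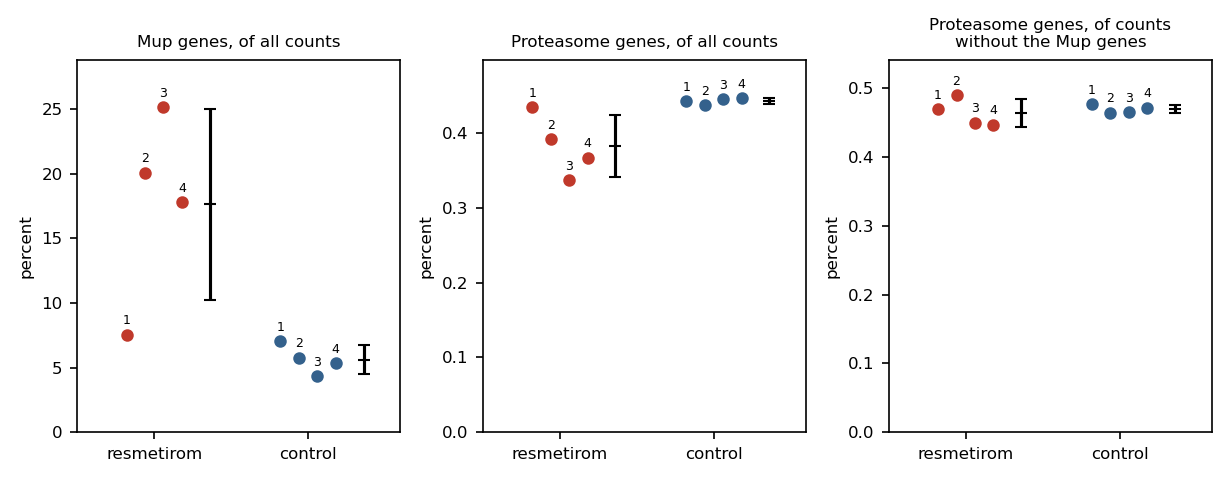
Share of counts (percent, vertical axes starting at 0) taken by the Mup genes and by the 46 proteasome genes in each library, with replicate numbers beside the points and mean ± SD at the right of each group. The proteasome share of all counts is lower in each resmetirom library (0.336% to 0.434%) than in any control library, while without the Mup genes the groups overlap.

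The authors' deposited table gives 28 of the 46 genes as lower in resmetirom at an adjusted p under 0.05 and 0 as higher, against 32.4% lower and 1.19% higher among the 16019 genes with counts. The 16019 include genes of low counts, and the share among genes of at least 10 CPM was not taken. Of the 46 log2 fold changes in the authors' deposited table, 45 are below 0 and the other, of Psmb11, is 0. The 28 comprise 7 core genes, 16 of the regulatory particle, 3 activators, 1 immunoproteasome gene (Psmb8) and 1 chaperone (Psmd5), with values in the authors' deposited table of -0.76 (Psmb8) to -0.34 (Psma5). The median over the 43 tested genes was -0.40 in the authors' deposited table, against -0.49 over the 12207 genes tested here. For genes with a mean TPM above 0 in both groups, that fold change is, to within 1e-06, the log2 ratio of resmetirom to control mean TPM. The ratio is undefined for genes at 0 in both groups, such as Psmb11. With library sizes as the only scaling of the counts, the median of all tested genes was -0.31, that of the proteasome genes was -0.20, and Psmd8, Psme3 and Psmd5 were called lower (3 of 43, against 16.1% of all tested genes), while 0 were called higher, against 1.24%. With library sizes taken without the Mup genes, an alternative chosen after seeing the data, the proteasome median was -0.0096 against -0.12 for all genes, and 0 of 43 were called higher, against 1.86% of all genes, or lower, against 3.6%. Without the 20 most abundant genes, also chosen after seeing the data, it was 0 higher (against 1.86%) and 0 lower (against 3.24%). The difference between the median of the proteasome genes and that of all tested genes was 0.107 with TMM factors, 0.111 with library sizes only and 0.107 without the Mup genes, but -0.030 on the log2(TPM + 1) scale and 0.069 on the log2(TPM + 0.1) scale.

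**Figure D5:**
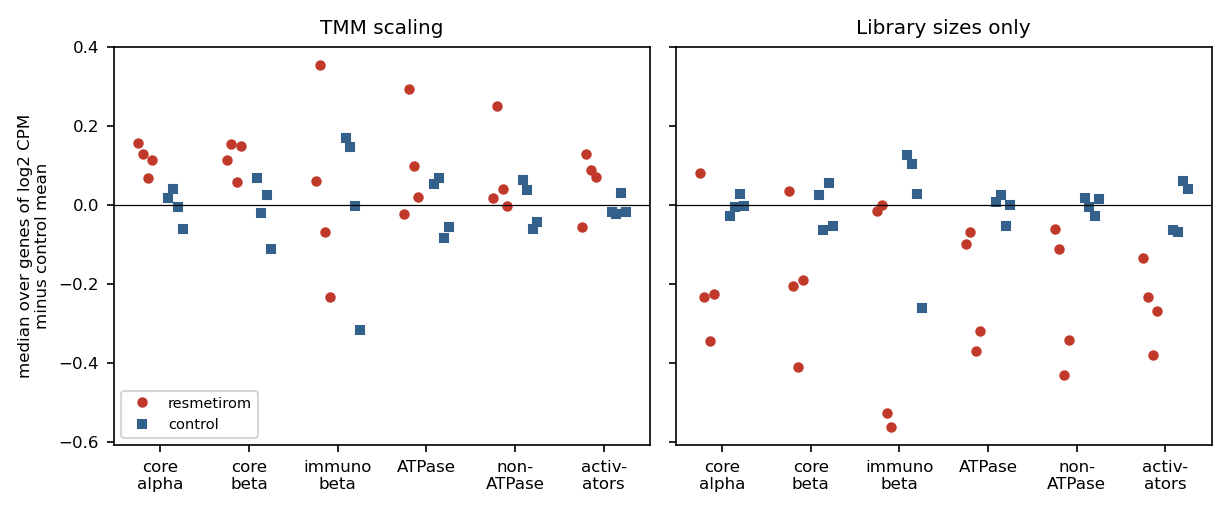
Median over the genes of each role of log2 CPM minus the mean of the control libraries (vertical axis), for each library, with TMM scaling (left panel) and with library sizes only (right panel). With TMM scaling the alpha genes of the resmetirom libraries (0.069 to 0.159) lie above those of the control libraries (-0.061 to 0.041), while with library sizes only 3 of the 4 resmetirom libraries lie below them.

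The median fitted changes were 0.13 for the core alpha genes, 0.14 for the core beta genes, 0.07 for the immunoproteasome genes, 0.12 for the ATPase genes, 0.08 for the non-ATPase genes and 0.04 for the activators. No test of the differences between these medians was made, since genes of 1 library are not replicates. Over the 14 core genes without Psma8, the per-library median relative to the control mean was 0.125, 0.158, 0.069 and 0.134 in resmetirom replicates 1 to 4, and 0.054, 0.026, 0.013 and -0.070 in control replicates 1 to 4. These core values did not overlap between the groups with TMM factors. The beta genes alone did overlap, at 0.059 to 0.156 in the resmetirom libraries and -0.111 to 0.070 in the control libraries. With library sizes only, the values of the 14 core genes were 0.047, -0.204, -0.399 and -0.206 in the resmetirom libraries and -0.019 to 0.045 in the control libraries. Without resmetirom replicate 1 the median over all 43 tested genes was 0.097, and 0 were called higher (against 2.31% of all genes) or lower (1.93%). Nor was any called without resmetirom replicate 2 (against 2.24% higher and 1.59% lower among all genes), 3 (2.4% and 1.91%) or 4 (1.68% and 1.3%), or without control replicate 1 (2.54% and 1.87%), 2 (2.19% and 1.47%), 3 (1.95% and 1.46%) or 4 (1.47% and 1.21%). The count was also 0 with RLE factors (2.59% and 1.93%), without the low-count filter (1.94% and 1.59%), without robust estimation (2.44% and 1.83%) and with a replicate block (1.97% and 1.36%).

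Of 17 partners of the proteasome that the naming rule leaves out (inhibitor, assembly factors, further subunits, deubiquitinases and adaptors), 1 rose (against 2.6% of all tested genes) and none fell (against 1.99%). Their median fitted change was 0.026. The gene that rose was Sem1, which encodes a small acidic subunit of the lid of the regulatory particle (ENSMUSG00000042541, chromosome 6, 6557294 to 6578663). It was at 25.9, 25.4, 24.9 and 27.9 CPM in the resmetirom libraries and 19.1, 17.8, 21.4 and 15.2 CPM in the control libraries, and the groups did not overlap. Its log2 fold change was 0.50 (SE 0.12, 95% interval 0.24 to 0.76, adjusted p = 0.0322 in edgeR's test). In the authors' deposited table Sem1 was at 0.019 and was not called. The call in edgeR's test held in 7 of 18 alternatives. It was lost without resmetirom replicate 1, 2 or 4 (adjusted p = 0.0591, 0.0649 and 0.105) and without control replicate 2 or 4 (adjusted p = 0.0867 and 0.105), with only library sizes (0.20, adjusted p = 0.322), with library sizes without the Mup genes (adjusted p = 0.0765) or without the 20 most abundant genes (adjusted p = 0.0872), with the replicate block (adjusted p = 0.0973), and with limma on deposited TPM plus 1 (0.0088, adjusted p = 0.967) or plus 0.1 (0.0088, adjusted p = 0.968). Adrm1, a ubiquitin receptor of the regulatory particle, was at 0.01 (SE 0.12, adjusted p = 0.989), Pomp, which matures the core particle, at 0.11 (SE 0.09, adjusted p = 0.571), and Psmf1, an inhibitor, at 0.12 (SE 0.10, adjusted p = 0.635). These 3 were named after their values were seen.

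Upstream and downstream genes were likewise uncalled in edgeR's test, where 2.6% of all tested genes were called higher and 1.99% lower. Of 16 genes of ubiquitin supply and shuttling, 0 passed in either direction, and the smallest p was that of the shuttle gene Ubqln4 at -0.31 (SE 0.11, adjusted p = 0.158). Of 12 regulators, 0 passed. Nfe2l1, which encodes NRF1, was at 105, 128, 142 and 152 CPM in the resmetirom libraries and 151, 143, 105 and 111 CPM in the control libraries, and its fitted change was 0.05 (SE 0.14, adjusted p = 0.914). Nfe2l2, which encodes the oxidative stress factor NRF2, was at 45.6, 53.8, 50.8 and 55.5 CPM in the resmetirom libraries and 79.1, 58.4, 59 and 54.4 CPM in the control libraries, and its change was -0.29 (SE 0.12, adjusted p = 0.248). Mafk, a small Maf partner of both factors, had the smallest p of the list at -0.41 (SE 0.16, adjusted p = 0.214). Of 15 genes that supply or load class I peptides, 0 passed, and H2-T23, a nonclassical class I gene, came closest at 0.34 (SE 0.09, adjusted p = 0.0657). DESeq2 called H2-T23 higher (0.34, adjusted p = 0.0270), as did the edgeR test when resmetirom replicate 3 was left out (0.41, adjusted p = 0.0231), and its estimate with limma at TPM plus 1 was -0.17 (adjusted p = 0.437). Ubqln4, Mafk and Nfe2l2 were called lower when only library sizes were used, against 16.1% of all tested genes. They were also called lower with limma at TPM plus 1 (-0.76, -0.82 and -0.76), against 32.7%, and at TPM plus 0.1, against 32.8%. The authors' deposited table gives all of them as lower (-0.80, -0.90 and -0.78), against 32.4% of genes with counts. Nfe2l1 is also lower there (-0.44), and limma called it lower at TPM plus 1 (-0.43) and plus 0.1 (-0.44).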

How the data were processed

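Oligo(dT)-selected RNA of 8 mouse liver libraries was sequenced, 4 of each group, grouped by title. The authors deposited 1 table with whole-number counts per gene, TPM per gene and library, mean TPM per group, a log2 fold change, and a p-value with its adjusted p-value, per the file headers. Per the submitters' processing notes, mm10 was the build and the tools included HISAT2 2.1.0 and Bowtie2 2.2.8, StringTie 1.3.1 and RSEM, fastp 0.18.0, and edgeR and DESeq2, with no roles. Which tool made each column, strand handling and the treatment of shared reads are not given in the sources used here.

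Counts of the whole table were tested with edgeR 4.0.16 (R 4.3.3): filterByExpr kept 12207 genes, followed by TMM factors, robust quasi-likelihood fits and Benjamini-Hochberg adjustment over all tested genes (threshold 0.05). TMM factors were 0.804 to 1.16. Log2 fold changes are resmetirom minus control, the SE is the change over the root of the F statistic, and 95% intervals use the fit's t quantile. Ratios of subunits added 0.5 to each count. Counting limits (3 counts for a 0) cover counting error only. Alternatives used DESeq2 1.42.0 and limma 3.58.1 on log2(TPM + 1) and log2(TPM + 0.1), for genes with a mean TPM of at least 0.1.

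The members, gene lists and tests were chosen with earlier results of these data known. Named genes were every called member, the 6 catalytic genes, 4 activators (Psme1 to Psme4), the highest and lowest fold and TPM of each role, the 2 name-only genes, called genes (at most 4) or else the smallest p of 4 further lists, and Nfe2l1 and Nfe2l2. Replicates of 1 group differed beyond counting error (chi-square per degree of freedom of 13.8 or more). The procedure was tested on simulated data. Positions and exonic lengths came from GENCODE M21 on GRCm38, promoters from RefSeq. A search for 1 further promoter pattern is not reported here.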

Additional observations from a re-analysis of the deposited data

Results flagged for a closer look

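In 88 groups of 4 libraries (named genes, subunit ratios and role medians), 6 held 1 library far from the other 3, where chance gives about 1 in 20. Psmb5 was at 104 CPM in resmetirom replicate 4, against 87.5 to 89.8 CPM in the other resmetirom libraries. Psmc3 was at 164 CPM in resmetirom replicate 2, against 132 to 135 CPM in the others. Psme4 was at 117 CPM in resmetirom replicate 1, against 142 to 145 CPM in the others. Psme2b was at 0.169 CPM in resmetirom replicate 1, from 3 counts, and at 0 in the others. Ubqln4 was at 35.9 CPM in control replicate 1, against 28.3 to 29.6 CPM in the other control libraries. The median of the activators, relative to the control mean, was 0.030 in control replicate 3, against -0.023 to -0.016 in the other control libraries.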

How the results depend on the processing

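The count of 0 proteasome genes called in either direction held in edgeR with RLE factors, without the low-count filter, without robust estimation, with the replicate block, with library sizes without the Mup genes or the 20 most abundant genes, and with each library left out. With DESeq2 it was 1 higher. Using only library sizes it was 3 lower, with limma at TPM + 1 21 lower and with limma at TPM + 0.1 23 lower. Counts of all genes called, higher and lower, were 317 and 243, but with only library sizes 151 and 1961, 523 and 387 with DESeq2, 131 and 4418 with limma at TPM + 1, and 135 and 4423 with limma at TPM + 0.1. Lower calls were 438 with library sizes without the Mup genes and 394 without the 20 most abundant genes. With each library left out, higher calls ranged from 182 to 313 and lower calls from 149 to 238.

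The median of the tested proteasome genes was -0.20 with unadjusted library sizes, -0.41 with limma at TPM + 1, -0.42 with limma at TPM + 0.1, -0.0096 with library sizes without the Mup genes and 0.0028 without the 20 most abundant genes. None of these settings uses TMM factors. All these settings move all genes: the median of all tested genes was -0.0043 with TMM factors and, in the same order, -0.31, -0.38, -0.49, -0.12 and -0.10. In that order, the role medians were -0.17, -0.36, -0.36, 0.017 and 0.030 for core alpha, -0.17, -0.37, -0.37, 0.023 and 0.036 for core beta, -0.23, -0.42, -0.43, -0.032 and -0.019 for non-ATPase genes, and -0.27, -0.42, -0.43, -0.072 and -0.060 for activators. The ATPase median was -0.19, -0.39, -0.39, 0.0083 and 0.020. The immunoproteasome median was -0.23, -0.41, -0.43, -0.034 and -0.022. With each library left out, medians ranged from 0.062 to 0.13 for all tested members, 0.11 to 0.15 for core alpha, 0.11 to 0.15 for core beta, -0.024 to 0.17 for immunoproteasome genes, 0.033 to 0.16 for ATPases, 0.0037 to 0.11 for non-ATPases and 0.013 to 0.081 for activators.

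With limma at TPM + 1 these genes were called lower with an estimate of the other sign than with TMM factors: Psmb5 at -0.45, Psmb6 at -0.45, Psmb7 at -0.43, Psme1 at -0.42, Psma4 at -0.43, Psmc4 at -0.47, Psmc3 at -0.44, Psmd3 at -0.42 and Nfe2l1 at -0.43. With limma at TPM + 0.1 they were at -0.45, -0.45, -0.43, -0.43, -0.43, -0.47, -0.44, -0.43 and -0.44, and Psma6 at -0.37. The medians of all genes on these scales, given above, are also below 0. The part of that common shift in these changes of sign was not tested. The log2 ratios of immunoproteasome to constitutive genes had values of -0.35 to 0.033 for Psmb8, 0.0060 to 0.26 for Psmb9 and -0.071 to 0.13 for Psmb10 when a library was left out. A single pair could not go below an adjusted p of 0.0857 there, nor below an unadjusted 0.125 with the block, so the lack of calls says nothing about stability. From the deposited TPM the Psmb8 ratio was -0.32 (adjusted p = 0.686).

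Same-numbered libraries did not deviate together (correlations of -0.325, 0.184, -0.186 and -0.0612), so the numbers were not taken as pairs. With the replicate block the counts of all genes were 240 higher and 166 lower, and Sem1 was at 0.51 (adjusted p = 0.0973).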

Other observations

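Over the 11 non-ATPase genes of the regulatory particle, the median relative to the control mean was 0.251 in resmetirom replicate 2, against -0.0026 to 0.041 in the other resmetirom libraries and -0.060 to 0.063 in the control libraries. In Psmc6, an ATPase gene named after its values were seen, that library was at 190 CPM, against 133 to 151 CPM in the other resmetirom libraries and 138 to 144 CPM in the control libraries. The core genes of the same library were at 0.158, against 0.069 to 0.134 in the other resmetirom libraries and -0.070 to 0.054 in the control libraries.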
